A study of Mus musculus with 8 samples.

Results

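The genes described here were the Toll-like receptors and lipopolysaccharide co-receptors of the mouse macrophage, chosen by name as Tlr1, Tlr2, Tlr4, Tlr6, Tlr7, Tlr8, Tlr13, Cd14, Ly96 and Cd180. They were 10 of the 23761 genes listed in the deposited expression table. RNA-sequencing was performed on bone marrow-derived macrophages (BMDMs), which are marrow cells grown into macrophages in medium conditioned by L929 fibroblasts. All mice were 3 months old and homozygous for Cre recombinase inserted at the lysozyme M gene (LysM Cre/Cre), which is active in macrophages, monocytes and neutrophils. The control mice carried only this Cre (LysM, n = 4), and the others also carried Klf2 alleles flanked by recombination sites (LysM Cre/Cre KLF2 flox/flox, called K2KO, n = 4). Every library is marked as vehicle in the sample labels, and no library treated with a Toll-like receptor ligand was analysed here. The libraries are called LysM0, LysM1, LysM2 and LysM3, and likewise K2KO0 to K2KO3, after the table's own numbering, which could not be tied to individual mice. Values are FPKM, which count fragments relative to transcript length and to the number of mapped fragments in the library and so can be compared between genes.

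Toll-like receptors are membrane proteins that recognise conserved molecules of microbes. At the cell surface, TLR2 pairs with TLR1 or TLR6 to bind bacterial lipopeptides, and TLR4 binds lipopolysaccharide together with MD-2 (encoded by Ly96), to which CD14 delivers the ligand. CD180 resembles TLR4 but lacks a signalling domain and pairs with MD-1 (encoded by Ly86). In endosomes, TLR7 and TLR8 sense RNA, and TLR13 senses bacterial ribosomal RNA. Most of these receptors signal through the adaptor MyD88 and IRAK kinases to NF-κB, and macrophages use them to start inflammatory gene expression.

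The genotype was checked first at Klf2 itself. Klf2 was present at 44.1, 52.9, 64.7 and 72.8 FPKM in the LysM libraries and at 45.5, 41.6, 59.2 and 59.3 FPKM in the libraries labelled K2KO. The groups overlapped, and the log2 fold change of -0.18 did not pass the test (limma adjusted p = 0.460, exact two-sided permutation p = 0.429). With 1 library left out it ranged from -0.31 (without LysM0) to -0.07 (without LysM3), and it did not pass in any of these fits. A level summed over the whole gene does not tell a recombined transcript from an intact one, so each direction below is that of the libraries labelled K2KO. Lyz2, the gene that holds the Cre, was present at 18.6 FPKM in LysM and 13.2 FPKM in K2KO on average (log2 fold change -0.49, limma adjusted p = 0.026).

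Of the 10 genes, 2 passed the test and both were higher in the libraries labelled K2KO. They were Tlr8, which rose 2.61-fold, and Tlr13, which rose 1.26-fold. The other 8 genes did not pass, and of these Cd14 had the lowest fold change and was lower in all 4 K2KO libraries than in any LysM library. Across all 10920 genes tested, 18.4% were called, 9.84% higher and 8.61% lower, and all 10 receptor genes passed the filter for testing. The 2 calls among 10 genes were near that background share. The median log2 fold change over the 10 genes was 0.20, beside 0.01 over all genes tested. With the correction for GC content and length described below, these medians were 0.00 and -0.02. Every fold change here is on the scale of log2(FPKM + 0.1), and a gene was called where its log2 fold change was larger than 0.26 in either direction and its limma adjusted p was under 0.05.

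The sequences before the start sites of Tlr8 and Tlr13 are shown because these were the receptor genes past the test. Both are from RefSeq (GRCm38.p6), 5′ to 3′ on the strand of the gene, and capitals mark a match to GAGGAAG, the letters searched for the purine-rich motif of PU.1, a transcription factor that macrophages need. Tlr8 lies at chrX:167264330-167264579 on the minus strand, and the Tlr13 stretch, the part of its window before the gene start of GENCODE, lies at chrX:106143025-106143203 on the plus strand.
Tlr8: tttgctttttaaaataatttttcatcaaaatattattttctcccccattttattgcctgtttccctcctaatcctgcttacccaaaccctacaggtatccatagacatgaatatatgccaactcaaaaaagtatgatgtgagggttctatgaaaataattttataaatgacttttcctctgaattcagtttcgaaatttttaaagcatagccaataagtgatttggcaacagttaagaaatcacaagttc
Tlr13: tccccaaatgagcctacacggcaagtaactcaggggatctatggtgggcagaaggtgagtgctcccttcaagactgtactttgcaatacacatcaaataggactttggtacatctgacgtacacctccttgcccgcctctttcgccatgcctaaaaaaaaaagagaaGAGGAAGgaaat

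The Tlr13 stretch held GAGGAAG 83 bases before the RefSeq start site and no CACCC, and the Tlr8 window held neither motif. CACCC is the core of the sites that Krüppel-like factors bind. RefSeq windows were used for 6 of the 10 genes (Tlr1, Tlr2, Tlr6, Tlr8, Tlr13 and Cd180), in 9 windows. Any window of the 10 genes on chromosome 18, where Cd14 lies, was left out. Each motif was searched on both strands (GGGTG and CTTCCTC on the other strand). CACCC was in 2 of the 9 member windows and in 52% of all 32851 mouse windows of 250 bases, and GAGGAAG was in 2 of the 9 and in 10.6% of all windows. The 9 windows are not separate promoters. Those of Cd180 overlap almost wholly, and Tlr1 and Tlr6 each have a window inside the GENCODE gene. The CACCC of Tlr6 was in its window inside the gene. Such a match is a description of the letters and not a binding site.

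The surface receptors for lipopeptides showed levels that overlapped between genotypes. Tlr2, the shared partner, ranged from 31.2 to 34.1 FPKM in LysM and from 30.1 to 34.2 FPKM in K2KO. Its log2 fold change was -0.06 with a 95% confidence interval from -0.19 to 0.08 (limma adjusted p = 0.517). Tlr1, which with TLR2 binds triacylated lipopeptides, ranged from 10.97 to 15.6 FPKM in LysM and from 9.87 to 15.5 FPKM in K2KO. Its log2 fold change of -0.11 had an interval from -0.46 to 0.24 (limma adjusted p = 0.620). Tlr6, which with TLR2 binds diacylated lipopeptides, ranged from 4.16 to 4.78 FPKM in LysM and from 4.65 to 5.63 FPKM in K2KO. Its log2 fold change of 0.18 had an interval from 0.01 to 0.36 (limma adjusted p = 0.123). None of these 3 genes passed the test. Tlr2 lies on chromosome 3 (83836272 to 83841767, minus strand), and Tlr1 (64924679 to 64933563) and Tlr6 (64952031 to 64960097) lie 18.47 kb apart on the minus strand of chromosome 5, all in GRCm38. Tlr1 and Tlr6 are close copies, with 15.4% of the 50-base words in Tlr1 transcripts also found in other genes and 12.3% of those in Tlr6, mostly in each other. Reads from these words could have been assigned to either gene, so the levels of both are uncertain to that extent.

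No gene of the lipopolysaccharide receptor complex passed the test. Cd14, the co-receptor that hands lipopolysaccharide to the complex, was the most abundant of the 10 genes, at 999, 1099, 969 and 1046 FPKM in LysM0 to LysM3. It was present at 830.2, 664, 892 and 930.2 FPKM in K2KO0 to K2KO3. Every K2KO library was below every LysM library, which held for 10.2% of all genes tested. The log2 fold change was -0.32 with a standard error of 0.11, and it missed the threshold (limma adjusted p = 0.0630). The exact two-sided permutation p was 0.0286, the smallest that 4 against 4 libraries allow. Under quantile normalization the log2 fold change of Cd14 was -0.02.

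Tlr4, the signalling receptor for lipopolysaccharide, was present at 11.7, 11.6, 14.0 and 12.5 FPKM in LysM0 to LysM3 and at 16.1, 15.9, 13.7 and 12.4 FPKM in K2KO0 to K2KO3. K2KO0 and K2KO1 were above every LysM library, and K2KO2 and K2KO3 lay within the LysM range. The log2 fold change of 0.22 (standard error 0.10) did not pass (limma adjusted p = 0.140). Ly96, whose product MD-2 holds the lipid of lipopolysaccharide, ranged from 31.3 to 33.3 FPKM in LysM and from 28.7 to 32.7 FPKM in K2KO. Its log2 fold change was -0.06, with an interval from -0.20 to 0.07 (limma adjusted p = 0.449). Tlr4 is on chromosome 4 (66827584 to 66930284, plus strand), Ly96 on chromosome 1 (16688051 to 16709611, plus strand) and Cd14 on chromosome 18 (36725067 to 36726798, minus strand).

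Cd180, the TLR4-like receptor without a signalling domain, was present at 45.7, 42.5, 41.1 and 38.7 FPKM in LysM0 to LysM3 and at 62.7, 83.3, 44.1 and 46.6 FPKM in K2KO0 to K2KO3. K2KO0 and K2KO1 were well above the rest, K2KO3 was just above the highest LysM library, and K2KO2 lay below it. The log2 fold change was 0.45 with a standard error of 0.18, and it did not pass (limma adjusted p = 0.104, exact two-sided permutation p = 0.0571). With K2KO1 left out, the log2 fold change of Cd180 was 0.27 (limma adjusted p = 0.178). Cd180 (chromosome 13, 102693558 to 102739629, plus strand) overlaps Mast4 on the other strand, and Mast4 was at 0.0084 FPKM in LysM and 0.0304 FPKM in K2KO on average. Ly86, which encodes the partner MD-1, averaged 331 FPKM in LysM and 246 FPKM in K2KO, and did not pass (log2 fold change -0.41, limma adjusted p = 0.106).

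**Figure D1:**
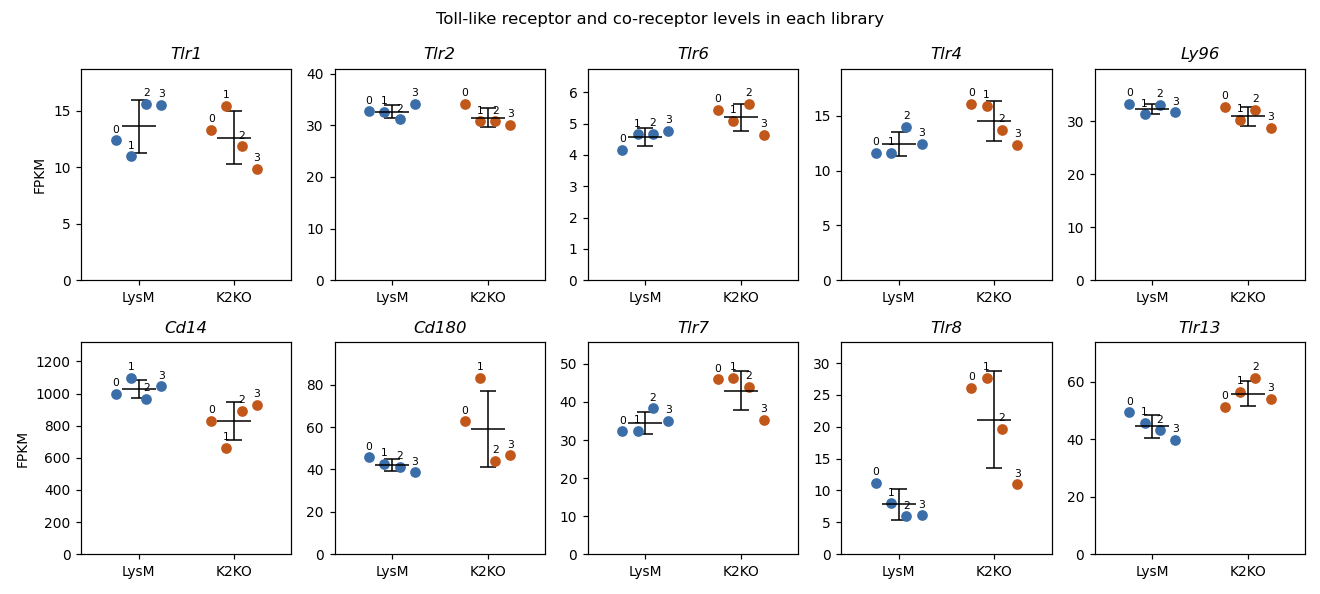
Level of each of the 10 genes in FPKM in every library (points, numbered by library), on linear axes that start at 0, with LysM in blue, K2KO in orange, and the mean and SD of each group (n = 4) in black. The K2KO points of Tlr13 are all above, and those of Cd14 all below, the LysM points, and those of Tlr8 overlap in 1 library, K2KO3, at 10.98 FPKM.

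The endosomal receptors held both called genes. Tlr8, a receptor for RNA breakdown products, was present at 11.2, 8.01, 5.97 and 6.09 FPKM in LysM0 to LysM3. It was present at 26.1, 27.7, 19.7 and 10.98 FPKM in K2KO0 to K2KO3. K2KO0, K2KO1 and K2KO2 were above every LysM library, and K2KO3 was just under LysM0. Tlr8 rose with a log2 fold change of 1.38, a standard error of 0.30 and a 95% confidence interval from 0.71 to 2.06 (limma adjusted p = 0.0184). Because of the overlap, the exact two-sided permutation p was 0.0571. The call was lost when LysM3, K2KO0 or K2KO2 was left out, with the log2 fold change between 1.23 and 1.67 and the limma adjusted p between 0.00382 and 0.0571 over all 8 libraries left out in turn.

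Tlr13, the receptor for bacterial ribosomal RNA, was present at 49.4, 45.7, 43.2 and 39.9 FPKM in LysM0 to LysM3 and at 51.3, 56.6, 61.5 and 54.1 FPKM in K2KO0 to K2KO3. Every K2KO library was above every LysM library, which held for 12.9% of all genes tested. Tlr13 rose with a log2 fold change of 0.33 and a standard error of 0.08 (limma adjusted p = 0.0270, exact two-sided permutation p = 0.0286). It kept its call in 3 of the 8 fits that left out a library and lost it without LysM1, LysM2, LysM3, K2KO1 or K2KO2. It also lost the call with the correction for GC content and length described below, where its log2 fold change was 0.12.

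Tlr7, which senses single-stranded RNA, was present at 32.3, 32.4, 38.4 and 35.1 FPKM in LysM0 to LysM3 and at 45.9, 46.4, 44.0 and 35.4 FPKM in K2KO0 to K2KO3. K2KO0, K2KO1 and K2KO2 were above every LysM library, and K2KO3 lay within the LysM range. The log2 fold change of 0.31 (standard error 0.10) missed the threshold (limma adjusted p = 0.0533, exact two-sided permutation p = 0.0571). Tlr7, Tlr8 and Tlr13 are all on the X chromosome in GRCm38. Tlr7 (167304929 to 167330558) and Tlr8 (167242696 to 167264329) lie 40.6 kb apart on the minus strand, and Tlr13 (106143204 to 106160493) lies on the plus strand. Of the 352 X-linked genes tested, 15.9% were called higher and 4.83% lower, with a median log2 fold change of 0.08. On the other chromosomes 9.63% of 10568 genes were called higher and 8.73% lower, with a median of 0.01. After correction for GC content and length these medians were 0.01 and -0.02. The part of the X chromosome in the receptor results was not tested. Ddx3y, on the Y chromosome, was listed at 0 in all 8 libraries. Xist ranged from 11.4 to 14.1 FPKM in LysM and from 13.7 to 19.6 FPKM in K2KO, and was called higher (log2 fold change 0.45, limma adjusted p = 0.0317). It did not pass with the GC correction (0.15, limma adjusted p = 0.200).

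**Figure D2:**
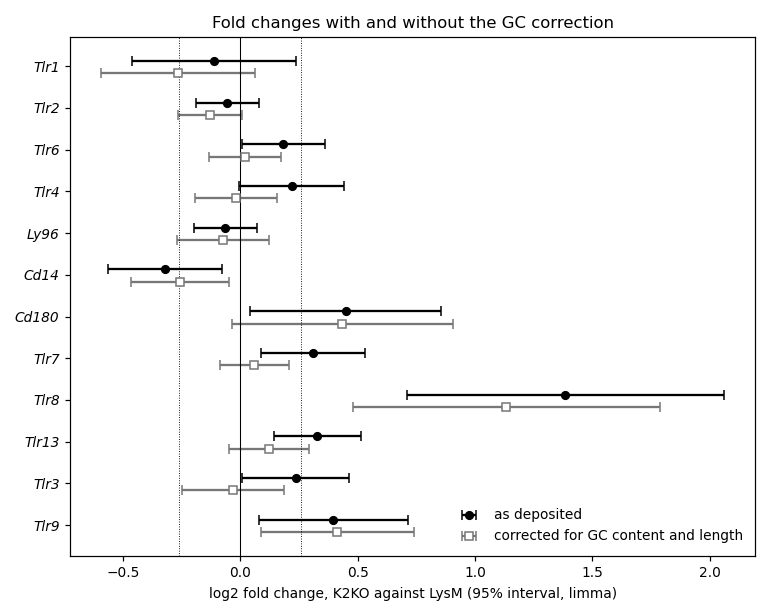
Log2 fold change of K2KO against LysM for each of the 10 genes and for Tlr3 and Tlr9 (points) with its 95% confidence interval (lines), from the uncorrected fit and from the fit corrected for GC content and length. Tlr8 stands at 1.38 uncorrected and 1.13 corrected, and Tlr13 moves from 0.33 to 0.12.

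Fold change followed the GC content of the transcripts in these libraries, and the receptors differ in GC content. Among the eighth of tested genes lowest in GC, 25.97% were called higher and 1.32% lower (median log2 fold change 0.21). Among the eighth highest in GC, 1.69% were called higher and 22.5% lower (median -0.17). Measured as the deviation of low-GC from high-GC genes on the log2 scale, K2KO0, K2KO1 and K2KO2 stood at 0.21, 0.25 and 0.29, while K2KO3 stood at -0.07. LysM0, LysM1 and LysM3 stood at -0.22, -0.23 and -0.25, while LysM2 stood at 0.02. K2KO3 was also the lowest of the 4 K2KO libraries for 7 of the 10 receptor genes.

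The receptor transcripts ranged from 40.0% GC in Tlr8 to 52.5% in Cd14. Among the genes of its own eighth, Tlr8 was exceeded in fold change by only 0.44%, Cd180 by 6.31%, Tlr13 by 18.6% and Tlr7 by 31.5%. Tlr6 was exceeded by 39.3%, Tlr4 by 47.8%, Tlr2 by 65.7%, Tlr1 by 84.1%, Ly96 by 87.0% and Cd14 by 88.7%. With each library corrected for GC content and length by a loess curve, Tlr8 remained higher (log2 fold change 1.13, limma adjusted p = 0.0448). Tlr13 then stood at 0.12 (limma adjusted p = 0.296) and Tlr7 at 0.06 (limma adjusted p = 0.560), and neither passed. Tlr4 turned from 0.22 to -0.02. Cd180 stood at 0.43 (limma adjusted p = 0.188) and Cd14 at -0.26 (limma adjusted p = 0.0997). In that fit 7.89% of all genes tested were called, beside 1 of the 10 receptor genes, and the median of the 10 was 0.00. How much of the difference in GC trend came from the genotype and how much from the libraries cannot be told apart.

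**Figure D3:**
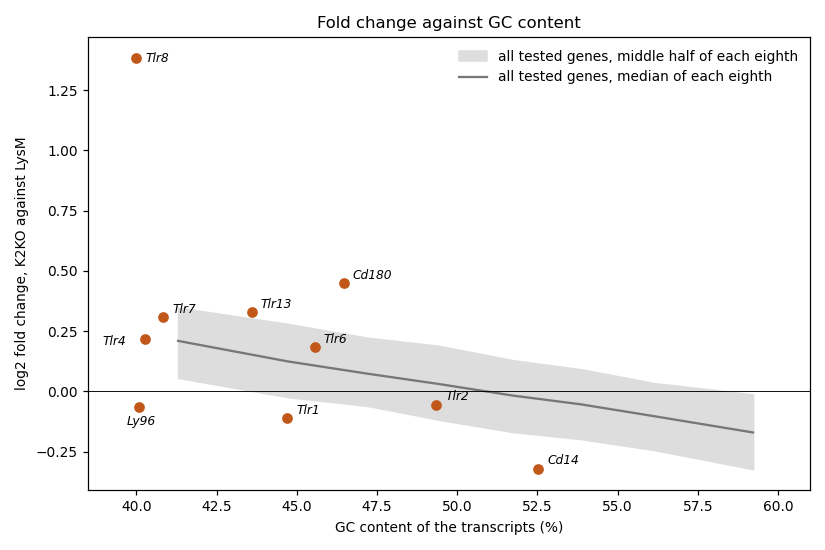
Log2 fold change of K2KO against LysM plotted against the GC content of the transcripts in percent, with the 10 genes as labelled points, the median of each eighth of all tested genes as a line at its median GC content, and the middle 50% as a band. The line falls from 0.21 to -0.17, and Tlr8 lies far above it. Among the genes of their own eighths, Cd180 and Tlr13 lie above the middle 50%, and Tlr2, Tlr4, Tlr6 and Tlr7 lie within it. Cd14, Ly96 and Tlr1 lie below it.

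The order of the receptor levels was much alike in both genotypes, with Cd14 first and Tlr6 last. In LysM, Cd14 averaged 1028 ± 56.7 FPKM (SD, n = 4). Tlr13 (44.5 ± 4.02 FPKM) and Cd180 (42.0 ± 2.94 FPKM) followed, with ranges that overlapped. Tlr7 (34.5 ± 2.86 FPKM), Tlr2 (32.7 ± 1.205 FPKM) and Ly96 (32.3 ± 0.984 FPKM) overlapped next, and then Tlr1 (13.6 ± 2.32 FPKM) and Tlr4 (12.4 ± 1.11 FPKM). Tlr8 (7.81 ± 2.43 FPKM) and Tlr6 (4.57 ± 0.278 FPKM) were the lowest, and the range of Tlr8 overlapped that of Tlr1 but not those of Tlr4 or Tlr6. In K2KO, Cd14 averaged 829 ± 118 FPKM, Cd180 59.2 ± 18.1 FPKM and Tlr13 55.9 ± 4.31 FPKM, the last pair overlapping. Tlr7 (42.9 ± 5.13 FPKM) followed, overlapping Cd180 but not Tlr13, and lay above Tlr2 (31.5 ± 1.82 FPKM) and Ly96 (30.9 ± 1.79 FPKM). Tlr8 (21.1 ± 7.59 FPKM) now led a group of overlapping genes with Tlr4 (14.5 ± 1.81 FPKM) and Tlr1 (12.6 ± 2.37 FPKM), with Tlr6 (5.20 ± 0.431 FPKM) again the lowest.

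Ratios between receptor partners were computed within each library and are given as descriptions. Tlr4 relative to Ly96 was 0.385 ± 0.0312 in LysM and 0.469 ± 0.0486 in K2KO (SD, n = 4), and every K2KO library was above every LysM library. Tlr2 relative to Tlr6 was 7.17 ± 0.506 in LysM and 6.06 ± 0.442 in K2KO, and every K2KO library was below. Tlr7 relative to Tlr8 was 4.78 ± 1.61 in LysM and 2.22 ± 0.710 in K2KO, with overlap because K2KO3 (3.22) was above LysM0 (2.89). Cd180 relative to Ly86 was 0.134 ± 0.0444 in LysM and 0.252 ± 0.117 in K2KO, also with overlap. Cd14 relative to Tlr4 averaged 83.3 in LysM and 58.4 in K2KO, and those groups overlapped too. Tlr1 relative to Tlr6 (2.98 and 2.43), Tlr2 relative to Tlr1 (2.45 and 2.55) and Tlr4 relative to Cd180 (0.298 and 0.256) overlapped as well. These ratios were not corrected for GC content and length, and with that correction the log2 fold changes of Tlr4 and Ly96 were -0.02 and -0.07, and those of Tlr2 and Tlr6 were -0.13 and 0.02 (-0.06 and 0.18 without it).

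**Figure D4:**
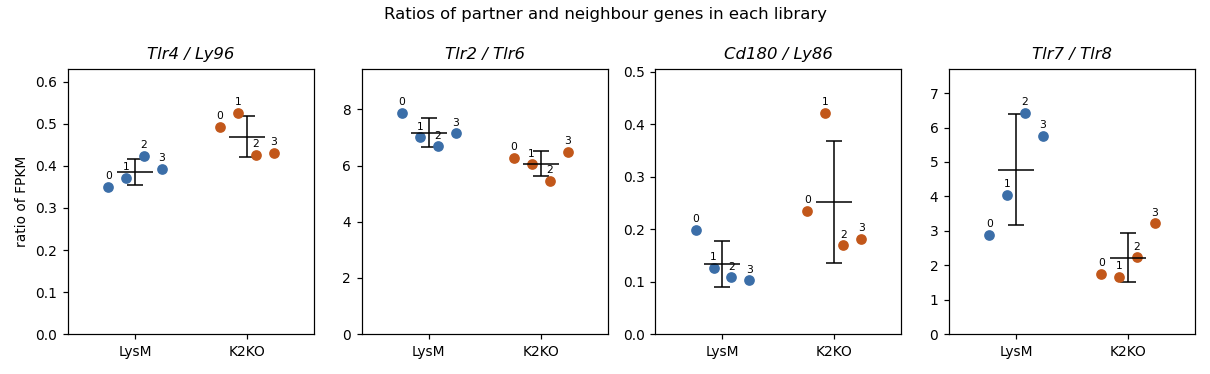
Ratio of FPKM between 2 genes within each library (points, numbered by library, LysM in blue and K2KO in orange) for 4 of the 8 ratios, on linear axes that start at 0, with the mean and SD of each group (n = 4) in black. Tlr4 to Ly96 is higher and Tlr2 to Tlr6 lower in every K2KO library than in any LysM library, and Cd180 to Ly86 and Tlr7 to Tlr8 overlap.

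Of the 5 remaining Toll-like receptor genes, 2 passed the filter for testing and neither was called. Tlr9, the endosomal receptor for unmethylated DNA on chromosome 9, averaged 7.42 FPKM in LysM and 9.94 FPKM in K2KO (log2 fold change 0.40, limma adjusted p = 0.0734). Tlr3, the endosomal receptor for duplex RNA on chromosome 8, averaged 2.76 FPKM in LysM and 3.28 FPKM in K2KO (log2 fold change 0.24, limma adjusted p = 0.120). Every K2KO value of Tlr3 was above every LysM value, but the log2 fold change was -0.03 after the GC correction. Tlr5 (0.0894 and 0.203 FPKM in LysM and K2KO), Tlr11 (0.0421 and 0.0604 FPKM) and Tlr12 (0.0569 and 0.161 FPKM) lay below the mean of 1 FPKM needed for the test.

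The genes whose profile over the 8 libraries was most like that of each called receptor were found among all 10920 genes tested, by the root mean square difference of profiles set to mean 0 and SD 1. For Tlr8 they were Hipk1, a nuclear kinase (difference 0.0557), the predicted gene Gm10184 (0.0801) and Usp9x, a deubiquitinase (0.1003). Of the other receptor genes, Cd180 came nearest to Tlr8, at rank 1414 (0.537). For Tlr13 they were Rab7b (0.140), a late-endosome GTPase also in the trafficking list below, Cpeb3, an RNA-binding regulator of translation (0.156), and Zbtb21, a zinc-finger protein (0.160). Tlr8 was the receptor gene nearest to Tlr13, at rank 1153 (0.556).

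The other genes of the pathway came from 5 lists with 68 genes, of which 67 were listed in the table and 61 passed the filter. In all, 10 of the 61 rose and 6 fell in the libraries labelled K2KO, beside the background of 9.84% and 8.61%. With the GC correction the balance turned, with 3 of the 61 higher and 5 lower beside a background of 3.52% and 4.38%. Among those called, Rab7b, Ikbke, Pik3ap1 and Cyld kept the call in all 8 fits that left out a library. Unc93b1 kept it in 7, Msr1 in 5, Ikbkg and Ptpn6 in 4, Dnase2a, Pld4 and Tnfaip3 in 3, Lrrc59, Rab10, Lgmn and Traf6 in 2, and Ctsl in 1. The list of chaperones and trafficking factors, which fold the receptors and carry them to endosomes, had 3 genes that rose and 1 that fell among 13 tested (median log2 fold change -0.12). Unc93b1, which escorts the nucleic acid-sensing receptors out of the endoplasmic reticulum, fell from 921 to 715 FPKM on average (log2 fold change -0.36, limma adjusted p = 0.0144). Its value after the GC correction was -0.26, just short of the fold needed, and under quantile normalization it was -0.08 (limma adjusted p = 0.368). Rab7b rose from 42.5 to 58.1 FPKM (0.45, limma adjusted p = 0.0170), Rab10, which helps carry TLR4 to the plasma membrane, rose from 26.2 to 34.5 FPKM (0.39, limma adjusted p = 0.0316), and Lrrc59 rose from 31.0 to 38.2 FPKM (0.30, limma adjusted p = 0.0260). Rab7b and Lrrc59 also passed with the GC correction, and Rab10 did not. In that fit 3 genes of the list not called without it were lower, the chaperone Hsp90b1 (-0.40, limma adjusted p = 0.0229), the clathrin adaptor subunit Ap1g1 (-0.32, limma adjusted p = 0.0187) and the recycling GTPase Rab11a (-0.27, limma adjusted p = 0.0289), so the list had 2 higher and 3 lower. These 3 are named after their values were seen.

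Enzymes that cut ligands or receptors in endosomes and lysosomes had the lowest median, -0.30, with 1 gene that rose and 3 that fell among 9 tested. Pld4, a nuclease of endosomal nucleic acids, fell by 0.39 on the log2 scale (405 to 308 FPKM, limma adjusted p = 0.0204). Lgmn, an endopeptidase that takes part in cleaving endosomal receptors, fell from 1301 to 1055 FPKM (-0.30, limma adjusted p = 0.0319). Dnase2a, the lysosomal DNase, fell from 200.4 to 164 FPKM (-0.29, limma adjusted p = 0.0204). Ctsl, a lysosomal cathepsin, rose from 1219 to 1507 FPKM (0.30, limma adjusted p = 0.0399). Of these 4, Lgmn alone passed with the GC correction. Under quantile normalization the 3 that fell lost their calls, with log2 fold changes of -0.05 for Lgmn (limma adjusted p = 0.490), -0.19 for Pld4 and -0.14 for Dnase2a, while that of Ctsl was 0.58 (limma adjusted p = 0.00940).

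Adaptors and kinases downstream of the receptors had 3 genes that rose and 1 that fell among 23 tested (median 0.02). Pik3ap1, an adaptor that links Toll-like receptors to phosphoinositide 3-kinase, had the highest fold change of the pathway lists, with 51.0, 37.3, 37.8 and 39.9 FPKM in LysM0 to LysM3 and 73.5, 83.8, 69.4 and 55.4 FPKM in K2KO0 to K2KO3. The groups did not overlap, and its log2 fold change was 0.76 (limma adjusted p = 0.0126). It also passed with the GC correction (0.67). Ikbke, a kinase of the interferon branch, fell from 71.4 to 52.4 FPKM (-0.44, limma adjusted p = 0.0121) and also passed with the correction. Ikbkg, the X-linked scaffold of the IκB kinase complex (0.42), and Traf6, a ubiquitin ligase downstream of MyD88 (0.28), rose but did not pass with the correction. Traf6 also lost its call under quantile normalization (0.18).

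Negative regulators had 2 genes that rose and 1 that fell among 10 tested (median -0.01). Cyld and Tnfaip3, both of which remove or edit ubiquitin chains in NF-κB signalling, rose by 0.45 (limma adjusted p = 0.0112) and 0.35 (limma adjusted p = 0.0314). Ptpn6, a tyrosine phosphatase, fell from 110.3 to 89.3 FPKM (-0.30, limma adjusted p = 0.0311), and lost its call under quantile normalization (-0.17). Among the accessory and ligand-delivery genes, 1 of 6 tested passed, the scavenger receptor Msr1, which rose from 16.6 to 20.8 FPKM (0.32, limma adjusted p = 0.0208; median of the list 0.13). None of Cyld, Tnfaip3, Ptpn6 and Msr1 passed with the GC correction.

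**Figure D5:**
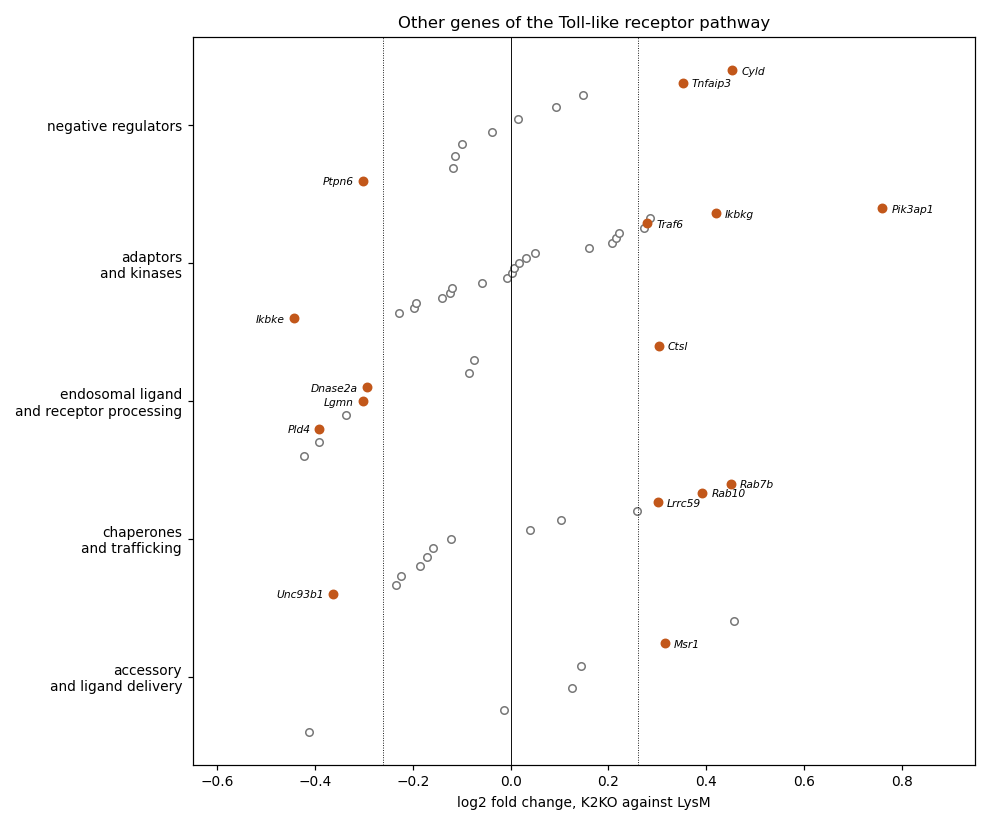
Log2 fold change of K2KO against LysM for the 61 tested genes of the 5 pathway lists, with the genes past the call as filled, named points and the fold threshold of 0.26 as dotted lines. Most points lie between the dotted lines, and Pik3ap1 lies farthest to the right at 0.76.

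Markers were read to see which cells the libraries held, since in bulk RNA fewer cells of a type and less RNA per cell cannot be told apart. Macrophage markers were abundant in every library, and Csf1r (524 and 526 FPKM in LysM and K2KO), Adgre1 (433 and 440 FPKM) and Cd68 (1834 and 1779 FPKM) did not pass the test. The summed level of the 10 macrophage markers was 10591.5 ± 814 FPKM in LysM and 7694 ± 572 FPKM in K2KO (SD, n = 4), with no overlap, led by the complement gene C1qb. Of these 10, 1 rose and 3 fell, beside 9.84% and 8.61% of all genes tested. Lyz2, which holds the Cre in both genotypes, was 1 of the 3 that fell. Without C1qa and C1qb, a sum taken after the values were seen, the other 8 markers came to 3153 ± 46.0 FPKM in LysM and 3064 ± 48.2 FPKM in K2KO, with overlap. B-cell markers, from a cell type that also expresses Cd180, Tlr7 and Tlr9, summed to 29.2 ± 8.55 FPKM in LysM and 29.5 ± 6.23 FPKM in K2KO. Their most abundant gene was Ighm, while the defining markers Ms4a1 and Ebf1 averaged under 0.1 FPKM in both genotypes, and 1 of 3 tested, Cd22, rose (0.36, limma adjusted p = 0.0147). Dendritic-cell markers, led by Bst2, summed to 1073 ± 280 FPKM in LysM and 734 ± 212 FPKM in K2KO, with overlap, none of 3 tested was called, and Zbtb46 and Xcr1 averaged under 0.1 FPKM in both genotypes. Bst2 made up nearly all of that sum (1066 and 726 FPKM), and several low members had higher means in K2KO. Siglech averaged 0.205 and 0.463 FPKM and Ccr9 0.0235 and 0.134 FPKM in LysM and K2KO, both without overlap. Flt3 (0.284 and 0.520 FPKM), Clec9a (0.338 and 0.563 FPKM), Cd209a (0.133 and 0.334 FPKM) and Ccr7 (0.968 and 1.63 FPKM) overlapped. Monocyte markers summed to 41.5 FPKM in LysM and 40.5 FPKM in K2KO, led by Ccr2 (19.8 and 17.5 FPKM), and none of 4 tested was called. Among them Plac8 averaged 3.79 FPKM in LysM and 7.39 FPKM in K2KO without overlap (log2 fold change 1.14, limma adjusted p = 0.0767). Neutrophil markers summed to 255 and 254 FPKM, led by S100a9. Of the T and NK cell markers, 6 of 8 averaged under 0.1 FPKM over all 8 libraries, and the sum of the list, 2.48 FPKM in LysM and 6.15 FPKM in K2KO, came mostly from Cd4. Among the 6, Cd3e averaged 0.0263 FPKM in LysM and 0.105 FPKM in K2KO, Cd3d 0.0545 and 0.134 FPKM, and Cd3g 0.0983 and 0.0474 FPKM, with overlap between the genotypes in each. Fibroblast markers summed to 0.551 FPKM in LysM and 1.64 FPKM in K2KO (3.25 FPKM in K2KO0), led by Dcn. Mast-cell and basophil markers summed to 0.413 and 0.8292 FPKM, led by Kit, which was higher in every K2KO library than in any LysM library (0.123 and 0.333 FPKM). Erythroid markers summed to 0.758 and 1.06 FPKM, led by Hba-a1. All 3 sums overlapped between the genotypes, and none of their genes reached the mean needed for the test. The part of these other cells in the receptor results was not tested.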

How the data were processed

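The authors deposited 1 table of FPKM values per gene for 8 libraries (4 LysM, 4 K2KO, 1 mouse each), made on mouse genome mm10. The study's methods name TopHat2 and Cufflinks and a stranded total RNA kit, whereas the submitters' processing notes name STAR, Cufflinks and Cuffdiff, and versions were not given in the sources used here. FPKM are not counts, so depth is unknown in absolute terms. From the steps between low values, depth relative to LysM0 ranged from 0.883 to 1.34 (exact permutation p = 0.771 between genotypes). Summed FPKM were 497253 to 551608 in LysM and 448235 to 501965 in K2KO. Columns were matched to a genotype by name.

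Genes with a mean of at least 1 FPKM (10920) were fitted as log2(FPKM + 0.1) with limma 3.58.1 in R 4.3.3 (trended variance, Benjamini-Hochberg adjustment over all genes tested), using the study's thresholds of 0.05 and 0.26. Single genes were also tested by an exact two-sided permutation test (scipy 1.17.1, Python 3.11.15). GC content, length and coordinates came from GENCODE M21 (GRCm38), to which 23645 of 23761 genes were matched, and a loess curve of span 0.3 gave the GC and length correction. In data simulated for K2KO against LysM, 179 of 200 genes changed by a log2 fold change of 1 among 10920 were recovered, with 8 false calls. That change is larger than those of Tlr13 (0.33) and of every called pathway gene (at most 0.76, in Pik3ap1). The simulation gives no share recovered or falsely called for smaller changes like these. The genes named were the 10 receptors, the other Toll-like receptor genes, Klf2, the called genes of each pathway list and the 3 genes most like each called receptor. Marker, sex-linked and partner genes are named as checks. The members and lists were chosen with earlier results of these data known. Alternatives covered the pseudocount, the filter, scaling, the variance model, GC correction, a replicate block, a larger fold threshold and each library left out.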

Additional observations from a re-analysis of the deposited data

Results flagged for a closer look

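In 3 of the 64 groups of 4 libraries examined for the named genes, 1 library lay far from the other 3, beside 3.2 groups that chance gives at 1 in 20. Tlr2 was 34.2 FPKM in K2KO0 and 30.1 to 30.8 FPKM in the other K2KO libraries. Rab10 was 29.8 FPKM in LysM0 and 24.9 to 25.3 FPKM in the other LysM libraries. Ptpn6 was 97.3 FPKM in K2KO1 and 86.2 to 87.2 FPKM in the other K2KO libraries.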

How the results depend on the processing

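With all libraries, 2014 genes and 2 receptor genes (Tlr8 and Tlr13) were called. These counts were 1090 and 1 without a filter, 746 and 0 by ordinary least squares (3878 genes at an unadjusted p under 0.05), 862 and 1 with the GC and length correction, and 110 and 1 at an absolute log2 fold change over 1. Where 1 receptor gene was called in these settings, it was Tlr8. Leaving out 1 library gave 543 to 2863 genes (753, 1111 and 543 without LysM1, LysM2 and LysM3, 819, 823 and 670 without K2KO0, K2KO1 and K2KO2, and 2863 without K2KO3). It gave 0 receptor genes without LysM3 or K2KO2 (3174 and 3481 genes at an unadjusted p under 0.05) and 5 without K2KO3, where Tlr4, Tlr7 and Cd14 joined. Tlr8 was called in 10 of 11 other settings and Tlr13 in 7 of 11. Quantile and upper-quartile scaling also called Tlr7. Of the called genes 53.3% were higher, 64.1% under upper-quartile scaling and 44.5% with the GC and length correction. Among the named genes not called with all libraries, some changed sign. Tlr2 was 0.0013 under quantile normalization, and with the GC correction, with or without the block, Tlr4 was -0.019, Tlr3 -0.030 and Klf2 0.029.

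Same-numbered libraries deviated together with a correlation between -0.07 and 0.07, and libraries of different number with at most 0.18. No pairing by number was seen, which does not show that there was none. A replicate block gave 2057 genes and the same 2 receptors, and with the GC correction the block gave 650 genes and 1 receptor, Tlr8. Of the called pathway genes, Ptpn6 lost its call under the block alone (limma adjusted p = 0.0561). Of those that passed with the GC correction, Lgmn (0.0516), Ikbke (0.0536) and Lrrc59 (0.0537) lost the call by limma adjusted p when the block was added, and Rab7b (0.0482) and Pik3ap1 (0.0413) kept it. With 4 libraries a group, 1 library decides several calls, and the causes were not tested.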

Other observations

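Outside the receptor pathway, 4 of the 10 macrophage markers were called, beside 18.4% of all genes tested. Lyz2, given above, was 1 of them and holds the Cre in both genotypes, so its level may not follow macrophage content. C1qa, a subunit of complement C1q, fell from 2685 FPKM in LysM to 1338 FPKM in K2KO on average (log2 fold change -1.01, limma adjusted p = 0.00772), and every K2KO library was below every LysM library. C1qb fell as well (-0.53, limma adjusted p = 0.0148), while Mertk, a receptor for dying cells, rose (0.36, limma adjusted p = 0.0285) but did not pass with the GC correction (0.23, limma adjusted p = 0.110). Of the 8 neutrophil markers tested, 1 was called, the granule peptide gene Camp, which fell from 13.6 to 6.40 FPKM (-1.14, limma adjusted p = 0.0178), while S100a8 (0.27) and Elane (0.47) had positive log2 fold changes that did not pass. Cd4 rose from 1.92 to 5.15 FPKM (1.38, limma adjusted p = 0.000434).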
